A study of Mus musculus with 18 samples.

Results

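A set of 9 genes known from plasmacytoid dendritic cells (pDC) and B cells was followed across conventional dendritic cells (cDC) of mouse spleen. They were Tcf4, Runx2, Spib, Bcl11a, Siglech, Ly6d, Cd79b, Blk and Blnk. They were chosen by name: every transcript row of these 9 genes was taken from the deposited tables and summed per gene, which gives 9 of 24614 genes with counts. All 9 passed the filter on low counts, among 13381 genes tested. The 18 libraries came from C57BL/6 mice that were wild type (WT) or knockout for ADAM10 (KO), a metalloprotease of the cell membrane that sheds the outer part of many receptors, Notch among them. Each genotype had 3 libraries of CD4+ cDC, 3 of CD4- cDC (sorted as CD8-CD4-) and 3 of CD8+ cDC, all gated as living cells with CD11c and MHC class II. The labels name no marker that would take pDC out of these gates, and no XCR1 or CX3CR1 gate. They give neither the age of the mice, nor how or in which cells Adam10 was deleted, nor whether the 3 libraries of a group were separate animals. The p-values below thus reflect how far the libraries of a group differ, part of which can be technical.

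The pDC is the cell type that makes large amounts of type I interferon on sensing viral nucleic acids. Its identity rests on TCF4 (E2-2), an E protein, which is a basic helix-loop-helix factor that binds DNA at E-box motifs and is held in check by Id proteins such as ID2. BCL11A, SPIB and RUNX2 work with TCF4 in that program, while ID2 is needed by CD8+ cDC. Several genes of the program are shared with B cells, among them parts of the B cell receptor signalling chain. Mouse splenic CD8+ DC have been described to hold a CX3CR1+ fraction that shares genes with pDC, next to the XCR1+ cells that form most of the subset. The levels of both kinds of markers are given beside the 9 genes.

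Levels are CPM, a count scaled to the total of its library, with TMM factors, which allows a gene to be compared between libraries, or TPM, the length-corrected share of a transcript in its library, which allows genes to be compared with each other. A gene was called when edgeR's quasi-likelihood test gave a Benjamini-Hochberg adjusted p under 0.05 over all genes tested, and "rose" and "fell" are kept for called genes. Fold changes are log2, KO minus WT, with a standard error (SE). Library totals ran from 12358884 to 19557469 counts. Adam10 itself fell in all 3 populations, from 97.6 ± 27.6 to 43.1 ± 2.40 CPM in CD4+ cells, from 105.9 ± 28.2 to 44.6 ± 2.89 in CD4- cells and from 71.4 ± 23.9 to 32.1 ± 3.98 in CD8+ cells (SD, n = 3), with no overlap between genotypes. Replicate 3 was the highest WT library for Adam10 in every population. Cd4 and Cd8a followed the gates in all 6 groups: within CD4+ cells Cd4 averaged 443.1 CPM (WT) and 432.9 CPM (KO), against 6.40 CPM or less in the other groups, and within CD8+ cells Cd8a averaged 1060 CPM (WT) and 588.4 CPM (KO), against 5.90 CPM or less. Ribosomal protein genes took 7.09% to 8.19% of the counts in the WT libraries and 8.70% to 9.86% in the KO libraries, a shift that runs with genotype in every population, and its part in the results was not tested.

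For 5 of the 9 genes (Runx2, Spib, Bcl11a, Siglech and Blnk) the RefSeq table of promoters (build GRCm38.p6) held a window upstream of the start site. The other members are Tcf4, Ly6d, Cd79b and Blk. Since TCF4 is an E protein and fell together with most of the others in CD8+ cells, the 250 bases upstream were searched for the E-box CANNTG, which reads the same on both strands, and for its form CAGGTG on both strands (each CAGGTG is also a CANNTG). The 250-base windows of all promoters in the table held a CANNTG in 66.2% and a CAGGTG in 17.2% of 32851 cases. Each of the 5 windows had at least 1 CANNTG, and those of Siglech and Blnk had a CAGGTG. The core of PU.1-like ETS factors, GAGGAA, was found in 0 of the 5 (23.3% of all windows), and TGGGAA, the core of the Notch-bound factor RBPJ, in 2, Bcl11a and Siglech (21.6% of all windows). Of the 5 windows, 3 are printed, the pair with a CAGGTG and that of Spib, the gene with the largest difference in CPM between KO CD4+ and KO CD8+ cells. Capitals mark the E-boxes and, in Siglech, the TGGGAA on the reverse strand, which reads TTCCCA. The Siglech window is chr7:55767934-55768183 (plus strand), that of Blnk chr19:40994222-40994471 (minus strand) and that of Spib chr7:44532072-44532321 (minus strand), each written 5′ to 3′ along its gene.
Siglech: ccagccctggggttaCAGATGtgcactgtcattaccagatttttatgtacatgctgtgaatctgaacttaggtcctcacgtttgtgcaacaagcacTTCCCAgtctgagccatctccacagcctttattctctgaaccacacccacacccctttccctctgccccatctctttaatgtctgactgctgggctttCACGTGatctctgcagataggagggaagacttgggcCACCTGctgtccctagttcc
Blnk: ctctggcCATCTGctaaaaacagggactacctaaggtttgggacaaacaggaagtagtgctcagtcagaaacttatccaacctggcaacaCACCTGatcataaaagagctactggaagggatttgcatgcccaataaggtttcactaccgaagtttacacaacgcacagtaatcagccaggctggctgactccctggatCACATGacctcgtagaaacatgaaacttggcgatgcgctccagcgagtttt
Spib: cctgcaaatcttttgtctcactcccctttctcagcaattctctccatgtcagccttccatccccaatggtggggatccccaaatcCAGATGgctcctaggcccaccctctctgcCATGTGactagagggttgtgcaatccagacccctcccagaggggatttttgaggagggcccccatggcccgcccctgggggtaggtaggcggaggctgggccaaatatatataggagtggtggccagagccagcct
In Siglech the CAGGTG, read here as CACCTG, begins 20 bases before the start site, and the other E-boxes begin 235 and 56 bases before it. In Blnk it begins 160 bases before the start site, between E-boxes at 243 and 51 bases. Spib has its E-boxes at 165 and 136 bases. These are matches of letters and were not tested as binding sites.

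In WT cells the 9 genes were all detected in all 3 populations, at very different levels. On the TPM scale, WT CD8+ cells held Tcf4 at 22.3 ± 3.80, Siglech at 18.1 ± 4.83, Bcl11a at 14.7 ± 2.90, Spib at 14.5 ± 2.71 and Ly6d at 13.4 ± 2.40 TPM. Cd79b followed at 6.62 ± 1.75 TPM, Runx2 at 4.96 ± 1.29, Blnk at 1.73 ± 0.448 and Blk at 0.157 ± 0.0498 (SD, n = 3). Every library of Tcf4 (18.3 to 25.9 TPM) lay above those of Bcl11a (at most 17.6), Spib (at most 16.3) and Ly6d (at most 15.5), while the libraries of Siglech overlapped those of all 4. This order is that of sums over all transcripts. In WT CD8+ cells 41.7% of the TPM of Tcf4 was assigned to Tcf4-236, annotated as a retained intron. The lead of Tcf4 does not hold for coding transcripts, of which the largest, Tcf4-202, stood at 5.125 TPM there. Together they lay below Ly6d, whose single coding transcript stood at 13.37 TPM. Blk lay below the rest. In WT CD4+ cells the order changed: Spib (27.3 ± 1.38 TPM) and Ly6d (22.7 ± 3.62 TPM) led, and Blk stood at 7.75 ± 1.73 TPM.

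**Figure D1:**
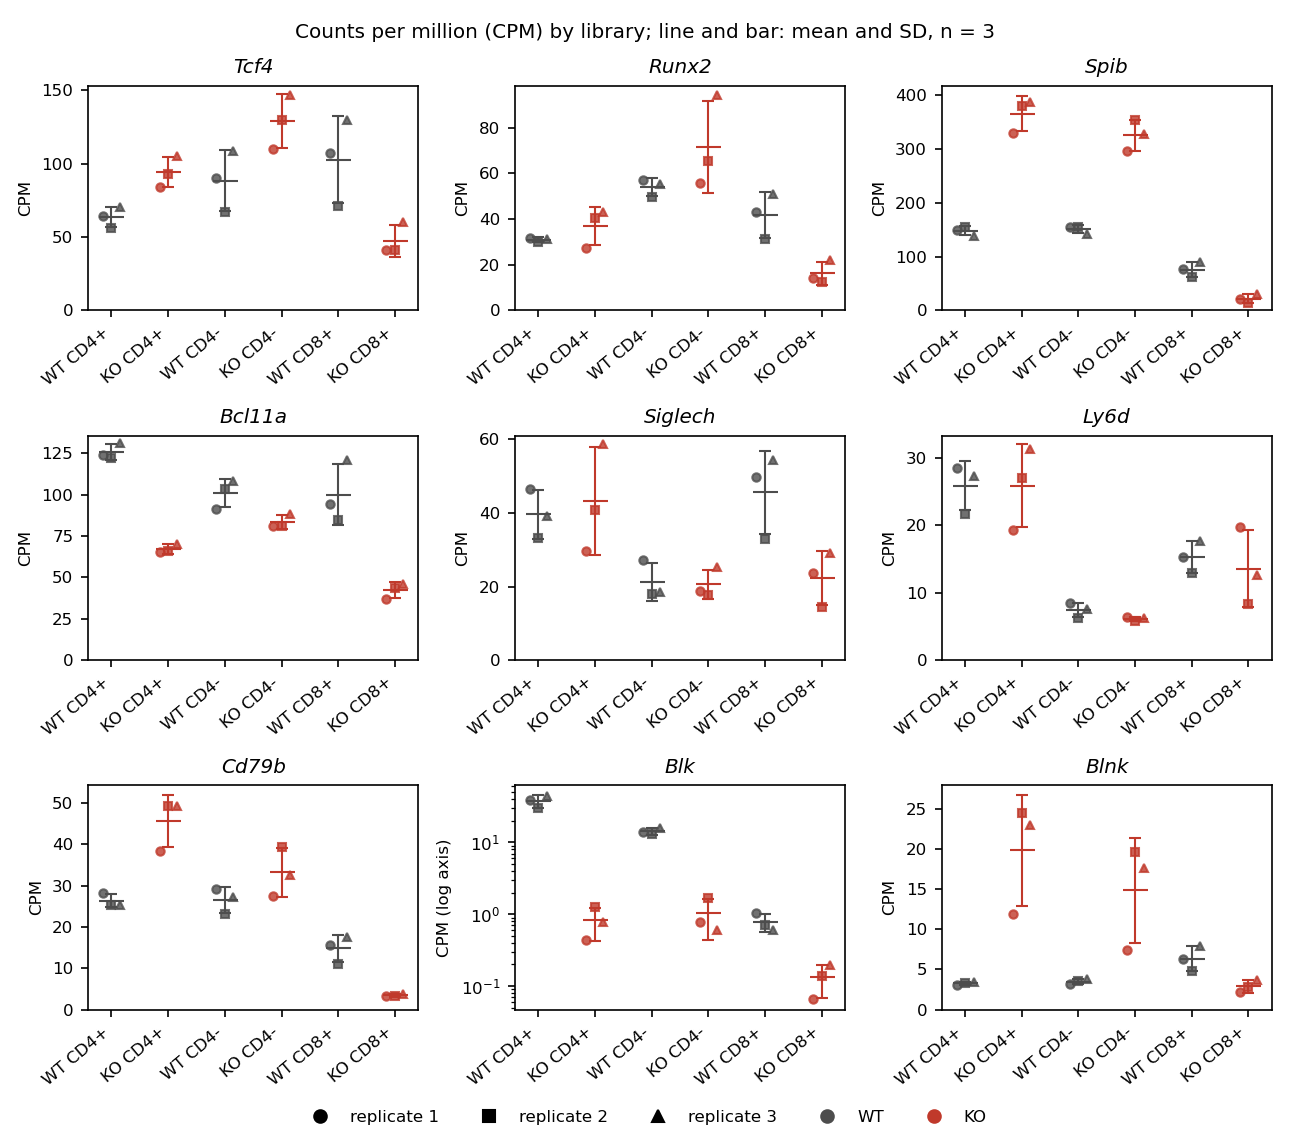
Scaled counts (CPM, vertical axis, linear from 0 except for Blk, which has a log axis) of each of the 9 genes in the 18 libraries, by group on the horizontal axis, with replicates as points and mean ± SD (n = 3) as a line and bar. In CD8+ cells every KO library of Tcf4, Runx2, Spib, Bcl11a, Siglech, Cd79b, Blk and Blnk sits below every WT library, and Ly6d overlaps. Spib and Blnk sit higher in KO than in WT in CD4+ and in CD4- cells, and Blk lower.

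In CD8+ cells, 8 of the 9 genes fell in the knockout and none rose. Over all genes tested, 15.7% were called in this comparison (6.99% up and 8.67% down). The median over the 9 genes was -1.25 and that over all genes 0.00. The exception was Ly6d. Libraries of sorted populations do not tell fewer cells of a kind from less RNA of a gene per cell, and the falls can be read either way.

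The 4 transcription factors all fell. Tcf4, the E protein at the head of the pDC program, stood at 107.3, 71.1 and 130.1 CPM in the WT and at 41.3, 41.5 and 60.3 CPM in the KO CD8+ libraries (log2 -1.11 ± 0.21, adjusted p = 0.00163). The lowest WT library, replicate 2, was still above the highest KO library. Runx2, a Runt-domain factor required for pDC to leave the bone marrow, stood at 43.1, 31.3 and 51.0 CPM in WT and 14.4, 12.3 and 21.9 in KO (log2 -1.36 ± 0.24, adjusted p = 0.000654). Spib, an ETS factor close to PU.1, had 76.7, 61.6 and 89.7 CPM in WT and 21.6, 13.2 and 29.8 in KO (log2 -1.82 ± 0.20, adjusted p = 9.02e-06), the largest fall among the factors. Bcl11a, a zinc finger factor needed for B cell and pDC development, had 94.5, 85.0 and 120.7 CPM in WT and 36.9, 43.6 and 46.1 in KO (log2 -1.25 ± 0.11, adjusted p = 1.1e-06). For all 4 the genotypes were separate, and replicate 2 was the lowest and replicate 3 the highest WT library. The share of all genes tested whose genotypes were separate was not counted, here or in the other comparisons.

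The surface genes split. Siglech, the sialic acid-binding lectin used to mark mouse pDC, fell from 49.7, 32.9 and 54.3 CPM to 23.7, 14.4 and 29.0 (log2 -1.03 ± 0.28, adjusted p = 0.0178). Its groups lay close, with the lowest WT library at 32.9 and the highest KO library at 29.0 CPM. Ly6d, a GPI-anchored surface protein that marks B-lineage and pDC-lineage progenitors, was at 15.4, 12.9 and 17.7 CPM in WT and 19.7, 8.37 and 12.6 in KO (log2 -0.17 ± 0.24, adjusted p = 0.711). The KO libraries of Ly6d spanned the whole WT range.

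Of the B cell receptor signalling genes, Cd79b, the Ig-beta chain that carries the signal of the receptor, fell most firmly. It stood at 15.6, 11.2 and 17.7 CPM in WT and at 3.26, 3.28 and 3.83 in KO (log2 -2.09 ± 0.19, adjusted p = 1.06e-06), 4.27-fold lower. Blnk, the adaptor that links the receptor's kinases to their targets, stood at 6.27, 4.80 and 7.93 CPM in WT and at 2.15, 2.86 and 3.70 in KO (log2 -1.12 ± 0.35, adjusted p = 0.0401). Blk, which encodes a Src-type tyrosine kinase found mainly in B cells, was close to the limit of detection in CD8+ cells of both genotypes, with 15, 10 and 8 counts in WT and 1, 2 and 3 in KO. Its ratio of KO to WT was 0.168 (95% exact interval 0.0576 to 0.407, counting error only), and its fitted value was log2 -2.50 ± 0.60 (adjusted p = 0.00885).

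The calls of Siglech and Blnk in CD8+ cells rest on single libraries. Siglech missed the threshold without WT replicate 1 (log2 -0.96, adjusted p = 0.064), without WT replicate 3 (log2 -0.89, adjusted p = 0.078) and without KO replicate 2 (log2 -0.79, adjusted p = 0.086). Blnk missed it without WT replicate 1 (log2 -1.13, adjusted p = 0.0891), WT replicate 3 (log2 -0.94, adjusted p = 0.149), KO replicate 1 (log2 -0.94, adjusted p = 0.149) or KO replicate 2 (log2 -1.11, adjusted p = 0.103). The other 6 calls held in each of the 6 fits that left out 1 library. On log2(TPM + 1) values, limma did not call Blk (log2 -0.15, adjusted p = 0.551) or Blnk (log2 -0.66, adjusted p = 0.114).

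**Figure D2:**
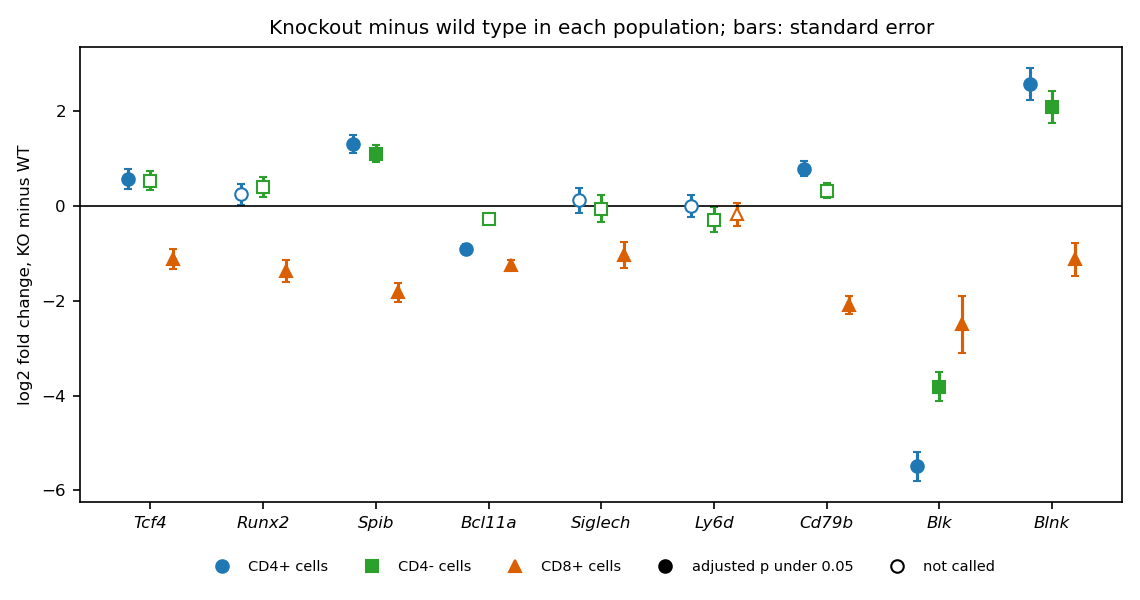
Log2 fold change, KO minus WT (vertical axis), of the 9 genes (horizontal axis) in CD4+, CD4- and CD8+ cells, with the standard error as a bar, filled where the adjusted p was under 0.05. All 9 CD8+ points lie below 0, from -2.50 (Blk) to -0.17 (Ly6d), while Spib and Blnk are above 0 in the other populations and Blk reaches -5.50 in CD4+ cells.

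In CD4+ cells the knockout moved the genes in both directions: 4 rose, 2 fell and 3 were not called, where 35.1% of all genes were called. The median over the 9 genes was 0.25 (0.02 over all genes). Spib rose from 149.5, 155.2 and 138.9 CPM to 329, 380.1 and 388.4 (log2 1.31 ± 0.19, adjusted p = 4.14e-05). Blnk rose from 3.08, 3.30 and 3.47 CPM to 11.9, 24.5 and 23.0 (log2 2.59 ± 0.34, adjusted p = 1.34e-05), so KO replicate 1 lay apart from the other KO libraries but above all WT libraries. Cd79b rose from 28.2, 25.4 and 25.4 CPM to 38.4, 49.3 and 49.2 (log2 0.79 ± 0.16, adjusted p = 0.000733). All 3 of these genes fell in CD8+ cells.

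Markers of other myeloid cells rose in the same CD4+ libraries. Of 10 monocyte markers 8 rose and 1 fell (median 1.90, sums of 3679 to 4841 CPM in WT and 12760 to 16980 in KO), and of 11 red pulp macrophage markers 8 rose and 1 fell (median 1.94, sums of 632.7 to 719.3 and 1202 to 1394 CPM). Fn1, which encodes fibronectin, went from 1.57, 0.913 and 0.467 CPM to 114.8, 253.5 and 232.6 (log2 7.64 ± 0.50, adjusted p = 7.29e-09). KO replicate 1 was the lowest KO library for Fn1, as it was for all 9 genes, whether they rose, fell or were not called. No marker of either list was at 0 in all 3 libraries of a group. Of 5 erythroid markers tested, 4 rose (18.2 to 46.6 and 72.1 to 249.5 CPM for the whole list of 6). The part of these in the CD4+ values of the 9 genes was not tested.

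Tcf4 stood at 64.1, 56.4 and 70.2 CPM in WT CD4+ cells and at 84.5, 93.4 and 105.2 in KO (log2 0.57 ± 0.21, adjusted p = 0.0442). The genotypes did not overlap, but the call is a narrow one. It was lost without WT replicate 1 (log2 0.57, adjusted p = 0.1), WT replicate 2 (log2 0.49, adjusted p = 0.148), WT replicate 3 (log2 0.64, adjusted p = 0.0601), KO replicate 2 (log2 0.58, adjusted p = 0.084) or KO replicate 3 (log2 0.48, adjusted p = 0.137). It was also lost when only transcripts annotated as protein coding were summed (log2 0.53, adjusted p = 0.0703).

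Blk showed the largest change of the set. It went from 39.1, 29.8 and 44.2 CPM in WT CD4+ cells to 0.442, 1.25 and 0.788 in KO, a 45.1-fold fall (log2 -5.50 ± 0.31, adjusted p = 1.54e-09). In counts this was 647, 587 and 663 against 8, 22 and 11. KO CD4+ cells thus held Blk at the level of WT CD8+ cells, which averaged 0.785 CPM. Bcl11a fell from 123.8, 121.9 and 131 CPM to 65.1, 65.7 and 70.4 (log2 -0.90 ± 0.11, adjusted p = 6.6e-06). Bcl11a was therefore lower without ADAM10 in CD4+ and in CD8+ cells, in contrast to Spib. Runx2 (log2 0.25 ± 0.23, adjusted p = 0.427), Siglech (log2 0.12 ± 0.27, adjusted p = 0.777) and Ly6d (log2 0.00 ± 0.23, adjusted p = 0.998) overlapped between genotypes.

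In CD4- cells, 2 of the genes rose and 1 fell, where 25.9% of all genes were called, and the median was 0.32 (0.02 over all genes). Spib rose from 155.3, 154.6 and 142.1 CPM to 296, 353.4 and 327.6 (log2 1.11 ± 0.19, adjusted p = 0.000355). Blnk rose from 3.14, 3.51 and 3.75 CPM to 7.41, 19.6 and 17.6 (log2 2.09 ± 0.34, adjusted p = 0.000237), again with KO replicate 1 lowest among the KO libraries. Blk fell from 14.0, 12.9 and 16.1 CPM to 0.771, 1.69 and 0.613 (log2 -3.82 ± 0.31, adjusted p = 2.25e-07). These 3 genes moved the same way in the CD4+ cells.

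Tcf4 went from 90.1, 66.8 and 108.8 CPM to 110.1, 130.0 and 147 (log2 0.54 ± 0.21, adjusted p = 0.0676), without overlap, and missed the threshold. It passed without WT CD4- replicate 3 (log2 0.69, adjusted p = 0.0452). Bcl11a (log2 -0.28 ± 0.11, adjusted p = 0.0771) also lay just outside it and passed without WT CD4- replicate 1 (log2 -0.36, adjusted p = 0.042). DESeq2 called both Tcf4 (log2 0.52, adjusted p = 0.0494) and Bcl11a (log2 -0.30, adjusted p = 0.0432), giving 5 called genes in place of 3. Runx2, Siglech, Ly6d and Cd79b lay between -0.28 and 0.40 and their genotypes overlapped. In the same cells the markers of other lymphocytes moved strongly: 12 of 12 T cell markers and 8 of 10 NK cell markers fell. The T cell markers summed to 126 to 271 CPM in WT and 15.0 to 48.1 in KO CD4- libraries, and the NK cell markers to 536 to 1004 and 309 to 378. Of the monocyte markers, 7 of 10 rose and 1 fell (3430 to 3656 CPM in WT and 8791 to 12360 in KO), and of the red pulp macrophage markers 3 of 11 rose and 1 fell (338.8 to 452.1 and 543.9 to 663.2 CPM). The part of these in the CD4- values of the 9 genes was not tested.

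The difference between the knockout effects was tested directly. The effect in CD8+ cells was lower than that in CD4+ cells for 6 of the 9 genes and higher for Blk, where 22.1% of all genes were called. The differences were -3.71 ± 0.49 for Blnk, -3.12 ± 0.28 for Spib and -2.89 ± 0.24 for Cd79b (edgeR adjusted p = 3.84e-05, 6.47e-07 and 4.3e-07). Tcf4 (-1.68 ± 0.30, adjusted p = 0.000605), Runx2 (-1.61 ± 0.33, adjusted p = 0.00168) and Siglech (-1.15 ± 0.39, adjusted p = 0.0426) also differed. The Blk difference was 3.00 ± 0.93 (adjusted p = 0.0281), the KO having lowered it more in CD4+ cells, and for Bcl11a (-0.34 ± 0.16, adjusted p = 0.14) and Ly6d (-0.17 ± 0.34, adjusted p = 0.782) no difference was called.

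The Siglech call was lost when any 1 of 8 of the 12 libraries was left out, the highest adjusted p being 0.127 without KO CD4+ replicate 3 (log2 -0.86). The other 7 were WT CD4+ replicates 2 and 3, KO CD4+ replicate 2, WT CD8+ replicates 1 and 3, and KO CD8+ replicates 1 and 2 (adjusted p from 0.0608 to 0.109). The Blk call was lost without KO CD8+ replicate 2 (2.97, adjusted p = 0.0857) or replicate 3 (2.63, adjusted p = 0.166), and with coding transcripts only (2.75, adjusted p = 0.0812). Bcl11a was called without WT CD8+ replicate 2 (-0.44, adjusted p = 0.0454). On log2(TPM + 1) values limma called neither Runx2 (-1.18, adjusted p = 0.059) nor Siglech (-1.23, adjusted p = 0.0982). Siglech was also lost on log2(TPM + 0.1), with an offset for transcript length and with only the groups compared (adjusted p from 0.0643 to 0.0981).

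Against CD4- cells, the CD8+ effect was lower for 6 genes, where 13.2% of all genes were called. These were Blnk (-3.21 ± 0.49), Spib (-2.93 ± 0.28), Cd79b (-2.42 ± 0.25), Runx2 (-1.77 ± 0.32), Tcf4 (-1.65 ± 0.30) and Bcl11a (-0.97 ± 0.16), with edgeR adjusted p from 4.25e-06 to 0.00151. These comparisons share the CD8+ libraries with the preceding ones and are no independent support for them. Limma did not call Runx2 here on log2(TPM + 1) (-1.07, adjusted p = 0.108) or log2(TPM + 0.1) (-1.37, adjusted p = 0.0991). Between the CD4+ and CD4- effects, 1 gene was called, Bcl11a (-0.63 ± 0.16, adjusted p = 0.0318), where 3.76% of all genes were. That call was lost without any 1 of 10 of the 12 libraries (adjusted p from 0.0512 to 0.107). It held without WT CD4- replicate 3 and without KO CD4- replicate 1.

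In WT cells, CD8+ and CD4+ cells differed in 7 of the 9 genes, where 45.6% of all genes were called. Tcf4 (log2 CD8+ minus CD4+ 0.69 ± 0.21, adjusted p = 0.0125) and Blnk (0.95 ± 0.34, adjusted p = 0.0337) were higher in CD8+ cells. Blk (-5.56 ± 0.32, adjusted p = 4.48e-10), Spib (-0.96 ± 0.19, adjusted p = 0.00053), Cd79b (-0.83 ± 0.16, adjusted p = 0.000467), Ly6d (-0.76 ± 0.24, adjusted p = 0.0153) and Bcl11a (-0.33 ± 0.11, adjusted p = 0.0216) were lower. In the main fit Tcf4 thus ranked CD8+ and CD4+ cells in the opposite order to its partner factors Spib and Bcl11a. The calls of Tcf4 and Bcl11a were lost with limma on log2(TPM + 1) (adjusted p = 0.104 and 0.471) and log2(TPM + 0.1) (0.111 and 0.486). They were also lost in edgeR with an offset for transcript length (0.0765 and 0.399), and Blnk was lost in the same fits. Between WT CD8+ and CD4- cells neither Tcf4 nor Bcl11a was called. Without 1 library, several of the calls were lost. Blnk lost its call without WT CD4+ replicate 1, 2 or 3 or WT CD8+ replicate 1 or 3 (log2 0.74 to 0.97, adjusted p from 0.0683 to 0.137). Tcf4 did without WT CD4+ replicate 2 (0.61, adjusted p = 0.0545) or WT CD8+ replicate 3 (0.48, adjusted p = 0.0918). Ly6d did without WT CD4+ replicate 1 (-0.70, adjusted p = 0.0519) or WT CD8+ replicate 2 (-0.66, adjusted p = 0.0661). Bcl11a did without WT CD4+ replicate 3 (-0.31, adjusted p = 0.062) or WT CD8+ replicate 1 (-0.30, adjusted p = 0.0678) or 2 (-0.24, adjusted p = 0.103).

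Against WT CD4- cells, 5 genes differed, where 42.9% of all genes were called. Siglech (log2 CD8+ minus CD4- 1.10 ± 0.28, adjusted p = 0.00425) and Ly6d (1.04 ± 0.25, adjusted p = 0.00298) were higher in CD8+ cells. Blk (-4.17 ± 0.32, adjusted p = 2.65e-08), Spib (-0.99 ± 0.19, adjusted p = 0.000495) and Cd79b (-0.84 ± 0.16, adjusted p = 0.000511) were lower. Blnk (0.87 ± 0.35, adjusted p = 0.0537) lay just outside the threshold and passed without WT CD8+ replicate 2 (1.01, adjusted p = 0.0475).

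Within WT cDC without CD8, the CD4+ cells held more Ly6d (log2 CD4+ minus CD4- 1.80 ± 0.25, adjusted p = 8.24e-05), Blk (1.40 ± 0.23, adjusted p = 0.0005) and Siglech (0.89 ± 0.28, adjusted p = 0.0358) and less Runx2 (-0.80 ± 0.22, adjusted p = 0.0212), 4 of 9 genes where 16.7% of all genes were called. In the knockout the CD4+ and CD4- libraries were again apart for Ly6d (19.3 to 31.4 and 5.75 to 6.35 CPM), Siglech (29.7 to 58.8 and 17.8 to 25.2) and Runx2 (27.5 to 43.3 and 55.6 to 94.1), which was not tested, and overlapped for Blk. Runx2 was not called without WT CD4+ replicate 1, 2 or 3 or WT CD4- replicate 1 or 3 (adjusted p from 0.0553 to 0.0743), and Siglech without WT CD4+ replicate 1 or 3 or WT CD4- replicate 2 or 3 (adjusted p from 0.0774 to 0.142).

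Of 4 markers of the CX3CR1+ side of the CD8+ DC, 3 fell in CD8+ cells, beside 8 of the 9 genes, where 8.67% of all genes fell. Cx3cr1, the receptor of fractalkine, went from 52.6, 34.6 and 60.5 CPM in WT to 7.89, 5.65 and 11.2 in KO (log2 -2.57 ± 0.22, adjusted p = 5.74e-07), 5.94-fold lower. Sirpa, an inhibitory receptor that XCR1+ cDC lack, went from 65.0, 61.6 and 87.0 CPM to 17.7, 11.2 and 22.3 (log2 -2.06 ± 0.19, adjusted p = 1.1e-06). The third was Tlr7, and the list summed to 181 to 260 CPM in WT and 61.5 to 115 in KO CD8+ libraries. The fourth, Ly6c2, was not called. These markers are not particular to CD8+ cells, since the list summed to 1192 to 1234 CPM in WT CD4+ libraries. In WT, Tlr7 (log2 CD8+ minus CD4+ -3.87 ± 0.19), Sirpa (-3.79 ± 0.19) and Cx3cr1 (-0.63 ± 0.19) were lower in CD8+ cells, and Ly6c2 (1.47 ± 0.25) was higher. The fall of Cx3cr1 was larger than those of Tcf4 (2.16-fold), Siglech (2.04-fold), Bcl11a (2.37-fold), Runx2 (2.57-fold) and Spib (3.52-fold). In the CD8+ libraries of each genotype, the order of the 3 replicates by Cx3cr1 (replicate 2 lowest, replicate 3 highest) was also that of Runx2, Spib and Siglech. It was not that of the other members in both genotypes. In KO, replicate 1 was the lowest for Tcf4, Bcl11a, Cd79b, Blk and Blnk, and the highest for Ly6d. The share of all genes with the order of Cx3cr1 was not counted. No gene of the CX3CR1+ list was at 0 in any group.

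Other myeloid markers moved in the same CD8+ libraries. Of 10 markers of cDC2, the subset without CD8 (Sirpa is 1 of them too), 6 fell and 2 rose, with a median of -1.40. Irf4, a factor needed by cDC2, went from 55.9, 40.4 and 69.0 CPM in WT to 8.21, 10.1 and 13.8 in KO (log2 -2.36 ± 0.19, adjusted p = 3.13e-07), with replicate 3 highest in both genotypes. Esam (log2 -2.19 ± 0.29, adjusted p = 5.35e-05), an adhesion molecule, and Cd209a (log2 -1.97 ± 0.26, adjusted p = 6.17e-05), a lectin, fell as well. The 2 that rose were Mgl2, a lectin (log2 2.28 ± 0.56, adjusted p = 0.00995), and Notch2, a Notch receptor (log2 0.80 ± 0.11, adjusted p = 8.58e-05), both named after their values were seen. The 10 genes summed to 469.7 to 619.7 CPM in WT and 457.8 to 647.4 in KO, so the sums overlapped, and none was at 0 in all 3 libraries of a group. Csf1r, the receptor of the macrophage growth factor CSF1, fell from 73.6 ± 17.9 to 10.7 ± 2.33 CPM (log2 -2.77 ± 0.17, adjusted p = 2.71e-08), and Vcam1, an adhesion molecule of red pulp macrophages, fell too (log2 -2.33 ± 0.19, adjusted p = 4.99e-07). Of 10 monocyte markers, Csf1r among them, 2 rose and 1 fell (sums of 1107 to 1370 CPM in WT and 1961 to 2663 in KO), and of 11 red pulp macrophage markers 3 fell and 0 rose (88.8 to 119 and 54.7 to 90.9 CPM). The part of these in the falls of the 9 genes was not tested.

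Markers that define pDC themselves moved in both directions in CD8+ cells. Of 5 such genes, Klra17 fell (19.0 ± 4.12 to 4.97 ± 0.969 CPM; log2 -1.93 ± 0.22, adjusted p = 1.09e-05) and Cox6a2 rose (2.43 ± 0.545 to 6.49 ± 2.22 CPM; log2 1.42 ± 0.32, adjusted p = 0.00578). Ccr9, the chemokine receptor of pDC, was at 63.8, 62.8 and 67.2 CPM in WT and 45.0, 42.5 and 54.0 in KO (log2 -0.45 ± 0.16, adjusted p = 0.0686), so its genotypes did not overlap but the test was not passed. Pacsin1 (5.99 ± 1.33 and 4.57 ± 0.795 CPM) and Klk1 (2.41 ± 0.837 and 2.13 ± 1.62 CPM) overlapped. The 5 summed to 88.7 to 102 CPM in WT CD8+ libraries and 55.4 to 73.9 in KO, and none was at 0. The wider list of 25 pDC genes, which holds these 5, gave 3 higher and 5 lower among 24 tested in CD8+ cells. Over all genes tested, 6.99% rose and 8.67% fell there. The 25 genes summed to 3944 to 4560 CPM in WT and to more, 5005 to 5183 CPM, in KO CD8+ libraries. A sum follows its most abundant genes. Irf8, which is also on the list of the XCR1+ side, was higher in WT CD8+ than in WT CD4+ cells (log2 4.23 ± 0.16, edgeR adjusted p = 6.46e-12). Its part in the sum was not counted, so the sum does not show a rise of pDC genes as a set. The other members of the wider list named for their change in CD8+ cells were both among those that fell. They were Lag3 (log2 -2.13 ± 0.16, adjusted p = 2e-07), an inhibitory receptor, and Lair1 (log2 -1.12 ± 0.18, adjusted p = 0.000407), a collagen receptor.

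**Figure D3:**
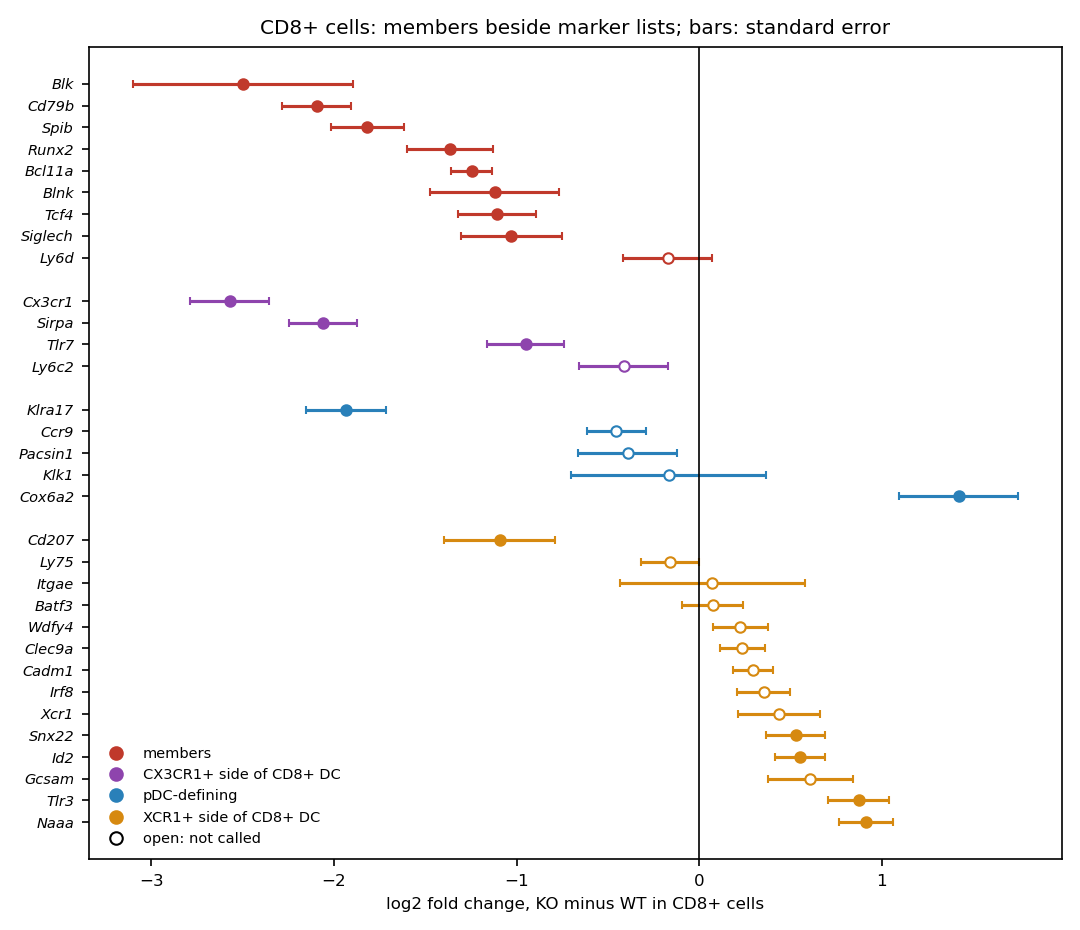
Log2 fold change in CD8+ cells, KO minus WT (horizontal axis), with the standard error as a bar, for the 9 genes and for 3 marker lists (vertical axis, grouped by colour; open points were not called). Cx3cr1 (-2.57) and Sirpa (-2.06) lie beside the most negative of the 9 genes, most XCR1+ markers lie at or above 0, and the pDC-defining genes run from -1.93 (Klra17) to 1.42 (Cox6a2).

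The XCR1+ side of the subset gave the other sign for most of its called genes. Of 14 genes tested, 4 rose and 1 fell in CD8+ cells, with a median of 0.32. Id2, the inhibitor of E proteins that CD8+ cDC require, rose from 471.6 ± 41.5 to 691.9 ± 65.6 CPM (log2 0.55 ± 0.14, adjusted p = 0.00981). Naaa (log2 0.91 ± 0.15, adjusted p = 0.000363) and Tlr3 (log2 0.87 ± 0.17, adjusted p = 0.00176) also rose, while Cd207, which encodes langerin, fell (log2 -1.09 ± 0.30, adjusted p = 0.0209). Xcr1 stood at 635.7, 913.3 and 688.2 CPM in WT and 1016, 954 and 1063 in KO (log2 0.44 ± 0.22, adjusted p = 0.221). Its WT replicate 2, the highest in Xcr1, was the lowest in Cx3cr1 and in 8 of the 9 genes. The 14 genes summed to 10080 to 11860 CPM in WT and 14930 to 15280 in KO CD8+ libraries.

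In CD4+ and CD4- cells Cx3cr1 moved the other way, and only a part of the 9 genes with it. It rose from 76.4 ± 7.50 to 409 ± 37.5 CPM in CD4+ cells and from 152.1 ± 8.65 to 383.5 ± 52.8 in CD4- cells, where Spib and Blnk rose too, while Siglech and Ly6d were not called. Over all 6 groups, KO CD4+ cells had the highest and KO CD8+ cells the lowest mean of Cx3cr1, Spib and Cd79b. Tcf4 and Runx2 were highest in KO CD4- cells (129 ± 18.5 and 71.6 ± 20.1 CPM) and lowest in KO CD8+ cells. Siglech was highest in WT CD8+ cells (45.7 ± 11.3 CPM), Bcl11a and Blk in WT CD4+ cells.

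The order of the 6 groups by mean CPM was not always separable. For Tcf4 the order was KO CD4-, WT CD8+, KO CD4+, WT CD4-, WT CD4+ and KO CD8+, and every group overlapped its neighbour. For Runx2 the KO CD8+ libraries alone were apart from the group next to them (WT CD4+, 29.9 to 31.9 CPM). For Spib the KO CD4+ and KO CD4- libraries overlapped, as did WT CD4- and WT CD4+, and both WT CD8+ and KO CD8+ were apart. For Siglech, the 3 groups with the highest means (WT CD8+, KO CD4+ and WT CD4+) overlapped in sequence and were apart from KO CD8+ and both CD4- groups. Ly6d followed the subset rather than the genotype in its order: CD4+ first, CD8+ next and CD4- last, with the KO mean just below the WT mean in each. Cd79b was apart in WT CD8+ and in KO CD8+. For Blnk the KO CD4+ and KO CD4- libraries overlapped, and KO CD4- reached into the WT CD8+ range by its replicate 1 (7.41 against at most 7.93 CPM).

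**Figure D4:**
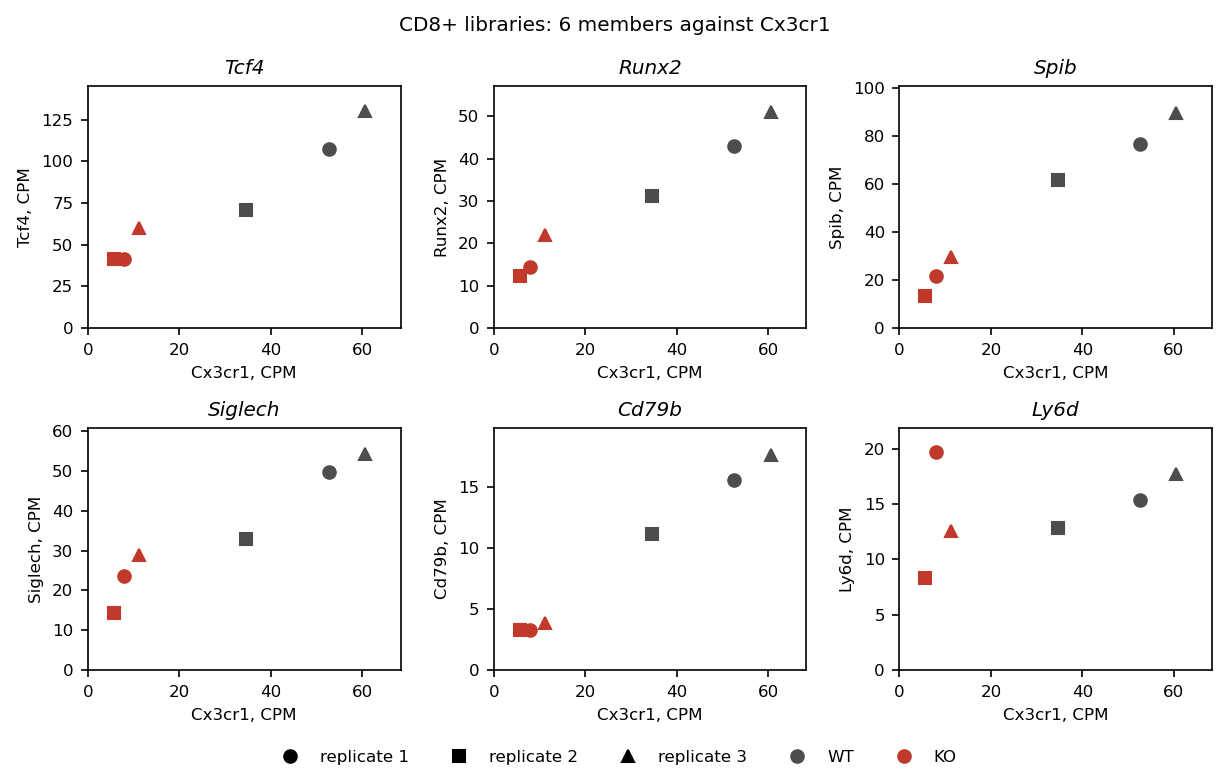
CPM of 6 of the 9 genes (vertical axes) against CPM of Cx3cr1 (horizontal axes) in the 6 CD8+ libraries, WT in grey and KO in red, with 1 symbol per replicate number. WT libraries lie at 34.6 to 60.5 CPM of Cx3cr1 and KO libraries at 5.65 to 11.2. Tcf4, Runx2, Spib, Siglech and Cd79b are higher in every WT than in every KO library, and Ly6d is not.

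The 9 genes also deviated together between libraries of the same group. After the group mean of log2(CPM + 1) was subtracted, the correlation over the 18 libraries was above 0 for 34 of the 36 pairs of members (median 0.505, range -0.0181 to 0.843). Libraries share depth, scaling and sorting, and those with the same replicate number tended to deviate together across groups, so this is a description. Neither these correlations nor the library orders below were counted over all genes, so they are not shown to be particular to the 9 genes. Replicate 3 of WT CD8+ was the highest of its group for 8 of the 9 genes and replicate 2 the lowest for 8, replicate 3 of KO CD8+ was the highest for 8, and replicate 1 of KO CD4+ was the lowest for all 9. Measured the same way, Cx3cr1 deviated with Spib (r = 0.898), Runx2 (0.882), Siglech (0.836), Tcf4 (0.773) and Cd79b (0.743), less with Blnk (0.552), Ly6d (0.523) and Bcl11a (0.508), and with Blk at 0.0946. Xcr1 deviated with Blk (0.6), Blnk (0.554) and Cd79b (0.401), less with Spib (0.214), Ly6d (0.147), Runx2 (0.137) and Siglech (0.0649), and gave -0.0315 with Tcf4 and -0.186 with Bcl11a. Ccr9 gave 0.739 with Siglech and 0.609 with Tcf4. Adam10 deviated with Bcl11a (0.756) and Tcf4 (0.678) as well. Whether a CX3CR1+ fraction of changing size accounts for the pattern was not tested, since these libraries give no count of such cells.

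B cells as a source can be set against their own markers. The 6 genes that define B cells here summed to 26.3 to 33.9 CPM in WT and 8.15 to 14.5 in KO CD8+ libraries, of which Ms4a1 (CD20) made up most, at 25.9 ± 4.21 and 10.2 ± 3.54 CPM. Pax5, the factor that commits cells to the B lineage, was at 0.357 ± 0.109 and 0.132 ± 0.112 CPM, near 0 in both genotypes. Cd79a, which pairs with Cd79b in the receptor, was at 1.00 ± 0.508 and 0.327 ± 0.257 CPM, while Cd79b in the same libraries averaged 14.8 and 3.46. In CD4+ cells, where Cd79b averaged 26.3 CPM in WT and 45.6 in KO, Pax5 averaged 0.638 and 0.891 CPM. The 6 genes summed to 24.14 to 27.83 CPM in WT and 30.35 to 48.73 in KO CD4+ libraries. Of them, Fcer2a rose there (log2 3.93 ± 0.29, adjusted p = 2.47e-08). Ms4a1 (log2 -1.40 ± 0.26, adjusted p = 0.000461) and Cr2 (log2 -2.44 ± 0.51, adjusted p = 0.00129) fell, and 3 were not called, where 35.1% of all genes were. Of the 6 genes, 3 fell in CD8+ cells (Fcer2a, Cr2 and Ms4a1), 0 rose, and none was at 0 in all 3 libraries of a group. The wider list of 19 B cell genes, which holds these 6, summed to more in KO (410.1 to 440.8 CPM) than in WT (356.5 to 371.2 CPM) CD8+ libraries. Of the 18 tested, 6 fell and 2 rose, Tnfrsf13c, the BAFF receptor (log2 1.99 ± 0.21, adjusted p = 5.61e-06), and Fcrla, an intracellular Fc receptor-like protein (log2 1.48 ± 0.35, adjusted p = 0.00681). In CD8+ cells 6 of 10 NK cell markers fell too (sums of 160 to 193 CPM in WT and 95.4 to 134 in KO), and 2 of 12 T cell markers (18.3 to 47.6 and 6.90 to 19.2 CPM). Their part in the falls of the 9 genes was not tested.

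The other E proteins changed less in CD8+ cells than Tcf4, a difference that was not tested. Tcf3, the paralog E2A, fell by 0.31 on the log2 scale (SE 0.09, adjusted p = 0.0341), and Tcf12, the paralog HEB, was at 0.08 ± 0.13 (adjusted p = 0.743). Zeb2, a repressor of Id2 expression in pDC, fell in CD8+ cells (log2 -1.87 ± 0.27, adjusted p = 0.000129) and rose in CD4+ (log2 1.46 ± 0.22, adjusted p = 5.52e-05) and CD4- cells (log2 0.99 ± 0.21, adjusted p = 0.00255). Id2 moved opposite to Zeb2 in each population, falling in CD4+ (log2 -1.72 ± 0.14, adjusted p = 8.86e-08) and CD4- cells (log2 -0.45 ± 0.14, adjusted p = 0.0233). Of the 9 genes of this network that were tested, 1 rose and 2 fell in CD8+ cells, 4 rose and 2 fell in CD4+ cells, and 2 rose and 2 fell in CD4- cells.

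Paralogs and partners of the 9 genes were followed as a list of 20, of which 19 were tested. Over all genes tested, 8.67% fell and 6.99% rose in CD8+ cells. In CD8+ cells 8 of 19 fell and 0 rose (median -0.31), among them the Src-family kinases Src (log2 -1.94 ± 0.20, adjusted p = 4.52e-06) and Fgr (log2 -1.29 ± 0.13, adjusted p = 3.52e-06) and the Runx2 paralog Runx1 (log2 -0.80 ± 0.10, adjusted p = 2.68e-05). In CD4+ cells 6 fell and 2 rose, where 16.6% of all genes fell and 18.5% rose. In CD4- cells 9 fell and 0 rose, where 11.3% of all genes fell and 14.6% rose. Those 9 include Bcl11b (log2 -3.30 ± 0.65, adjusted p = 0.00117), which is also 1 of the T cell markers that fell in CD4- cells. The part of T cells in this count was not tested. The Spib paralog Spic fell in CD4+ (log2 -1.29 ± 0.23, adjusted p = 0.000277) and CD4- cells (log2 -1.78 ± 0.25, adjusted p = 5.34e-05), where Spib rose.

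A list of 24 other genes of the B cell receptor signalling chain was tested. In CD8+ cells 3 fell and 0 rose (median -0.11), where 8.67% of all genes fell and 6.99% rose. In CD4+ cells 4 rose and 9 fell (median -0.20), where 18.5% of all genes rose and 16.6% fell. In CD4- cells 3 rose and 9 fell (median -0.01), where 14.6% of all genes rose and 11.3% fell. Malt1, a protease in the signalling complex downstream of the receptor, fell in all 3 populations (log2 -1.39 ± 0.11 in CD4+, -0.94 ± 0.11 in CD4- and -1.19 ± 0.11 in CD8+ cells, adjusted p = 3.64e-08, 7.87e-06 and 1.44e-06). Bank1, a scaffold for the same pathway, fell in CD4+ (log2 -2.61 ± 0.38, adjusted p = 4.5e-05) and CD4- cells (log2 -2.30 ± 0.40, adjusted p = 0.000401), alongside Blk. Lat2, an adaptor, rose in CD4+ cells (log2 0.86 ± 0.09, adjusted p = 1.92e-06).

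The transcripts behind the sums differed between the genes. Over the 18 libraries, 43.6% of the TPM of Tcf4 was assigned to Tcf4-236, annotated as a retained intron, and 23.6% and 14.8% to the coding Tcf4-202 and Tcf4-203. For Siglech, 26.4% and 9.60% went to transcripts annotated for nonsense-mediated decay (Siglech-204 and Siglech-207), and for Runx2 25.1% to Runx2-206 of the same class. A single coding transcript held most of Blk (96.3%, Blk-201), Cd79b (90.8%, Cd79b-202) and Spib (84.2%, Spib-201), and Ly6d has 1 transcript. With only coding transcripts summed, the 8 falls in CD8+ cells were all called. Runx2 and Bcl11a overlap annotated genes on the opposite strand, and since a strand setting of the counting is not given in the sources used here, reads of those genes cannot be told apart from theirs.

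The genes whose levels followed each member most closely over the 18 libraries were taken by Pearson's r of log2(CPM + 1), a value that reflects mostly the 6 group means. For Spib they were Cybb (0.991), Zeb2 (0.986) and Cx3cr1 (0.985), and for Cd79b they included Csf1r (0.98) and Clec7a (0.978). For Tcf4 they were Cd33 (0.9), Vipr1 (0.899) and Runx2 (0.899), and for Runx2 Gria3 (0.961), Gpr160 (0.939) and Hrh1 (0.927). For Bcl11a they were Samsn1 (0.958), Stard5 (0.946) and Slc44a2 (0.945), and for Blnk Tspan3 (0.944), Sowahc (0.94) and Timp2 (0.929). For Blk they were Actr1b (0.987), Ryr3 (0.982) and Mmp9 (0.98). Siglech had the lowest best value, with Chdh (0.892), Hs3st1 (0.855) and Cdh1 (0.854), and Ly6d was followed by Gm21762 (0.94), Cdh5 (0.93) and Klk1 (0.918), the last a marker of pDC. By Spearman's rho the same 3 genes were found for Siglech and for Ly6d, 2 of 3 for Runx2 and Bcl11a, 1 for Tcf4 and 0 for Spib, Cd79b, Blk and Blnk. Cx3cr1 is thus among the closest for Spib alone of the 9 genes by the first measure.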

How the data were processed

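RNA-seq of sorted splenic cDC was used at transcript level for 18 libraries in 6 groups of 3. Salmon 0.14.1, FastQC 0.11.8 and the build GRCm38 are given in the submitters' processing notes. Per the labels' protocols, poly(A) RNA was sequenced as single-end reads. The authors deposited estimated counts for 117135 transcripts and TPM values for 84086. Estimated counts of similar transcripts depend on how reads were divided among them, and TPM are scaled to each library's total and transcript lengths.

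Transcripts were summed per gene by the files' gene names, with GENCODE M21 for positions and for names not in the file (transcripts left without a gene held at most 0.16% of a library). Sums were rounded to whole counts, filtered with filterByExpr (13381 genes), TMM-scaled and fitted with 1 mean per group over all 18 libraries (12 residual degrees of freedom) in edgeR 4.0.16 under R 4.3.3, with the quasi-likelihood F test, two-sided. SEs come from the F statistic. The model was tested on simulated data. Pairs of libraries of 1 group differed by a chi-square of 9.43 to 32.4 per gene, above counting error, so none was treated as a duplicate. Intervals of counts cover counting error only.

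The members, the gene lists and the naming rule were chosen with earlier results of these data known. The rule names the members, the 3 genes most like each, and up to 4 called genes per list and comparison, with a mean of at least 5 CPM, by size of change; further genes of the sort, pDC and B cell lists may be named at any value. A few genes that this rule names are not reported here. Alternatives were DESeq2 1.42.0, RLE scaling, no filter, the replicate number as a block, only the groups compared, limma 3.58.1 on log2(TPM + 1) and log2(TPM + 0.1), an offset for transcript length, each library left out in turn and, added after the data were seen, coding transcripts only. Promoter windows are from RefSeq. No protein sequence was used here.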

Additional observations from a re-analysis of the deposited data

Results flagged for a closer look

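For 8 of the 9 genes, the knockout effect differed in at least 1 of 3 comparisons of populations by a test of the difference itself (the interaction term in edgeR, adjusted over 13381 genes). Of all genes, 22.1% were called for CD8+ against CD4+, 13.2% for CD8+ against CD4- and 3.76% for CD4+ against CD4- cells. The share called in at least 1 of the 3 was not counted. Between CD8+ and CD4+ cells the log2 effects differed by -3.71 for Blnk (adjusted p = 3.84e-05), -3.12 for Spib (6.47e-07), -2.89 for Cd79b (4.3e-07), -1.68 for Tcf4 (0.000605), -1.61 for Runx2 (0.00168), -1.15 for Siglech (0.0426) and 3 for Blk (0.0281). Blk is the exception in sign. The calls of Siglech and Blk in this comparison were lost without single libraries, as given above, and that of Blk also with coding transcripts only (2.75, adjusted p = 0.0812). Between CD8+ and CD4- cells they differed by -3.21 for Blnk (0.000341), -2.93 for Spib (4.25e-06), -2.42 for Cd79b (8.49e-06), -1.77 for Runx2 (0.00151), -1.65 for Tcf4 (0.00139) and -0.97 for Bcl11a (0.000593). Limma on log2(TPM + 1) values did not call Runx2 for CD8+ against CD4+ or CD4- cells, as given above. Between CD4+ and CD4- cells only Bcl11a differed, by -0.63 (0.0318), a call lost in 10 of the 12 fits that left out 1 library. Ly6d, for which no difference was called, is the remaining gene. The populations share no libraries, but the CD8+ effect enters both of the first comparisons. Spib, Blnk and Cd79b moved with opposite signs in CD8+ and CD4+ cells, as did Cx3cr1 and Zeb2. Markers of T and NK cells moved in CD4- and CD8+ cells as given above, and their part in these differences was not tested.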

How the results depend on the processing

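Of 1376 values of the 9 genes under the alternatives, 1225 kept their direction and side of the threshold, 88 lost a call, 26 gained one and 37 changed sign, and 42 of the 81 gene-by-comparison results held under all that were run. The falls of Tcf4, Runx2, Spib, Bcl11a and Cd79b in CD8+ cells were among these. RLE scaling changed no call. The cause of the changes below was not tested.

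The number of genes called differed by more than 1.5 times as follows. For CD4- cells, KO minus WT, the 3 calls became 5 with DESeq2. For CD8+ minus CD4+ in WT, the 7 became 4 with limma on log2(TPM + 1), on log2(TPM + 0.1) and with the length offset. The calls lost were those of Tcf4, Bcl11a and Blnk. For CD4+ minus CD4- in WT, the 4 became 2 under each of these settings, and 2 to 3 without 1 library. For the difference of the CD4+ and CD4- effects, the 1 call became 2 without the filter and with DESeq2, 0 on log2(TPM + 0.1) and with the length offset, and 0 to 1 without 1 library.

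Changes of sign were all of differences that were not called. Under limma on log2(TPM + 1) and log2(TPM + 0.1), Siglech in CD4+ cells was at -0.0865 and -0.0931, and the difference of CD4+ and CD4- effects of Runx2 at 0.108 and 0.137. With the length offset the latter was 0.00789 and Bcl11a in WT, CD8+ minus CD4-, 0.164. With coding transcripts only, Siglech in CD4- cells was at 0.344, and the difference of CD4+ and CD4- effects was -0.00408 for Tcf4 and -0.258 for Siglech. Without 1 library, KO minus WT ran from -0.166 to 0.329 for Siglech and -0.162 to 0.171 for Ly6d in CD4+ cells, -0.22 to 0.147 for Siglech in CD4- cells and -0.543 to 0.0777 for Ly6d in CD8+ cells. In WT, CD4+ minus CD4- ran from -0.0761 to 0.00711 for Spib and -0.105 to 0.0581 for Cd79b, and CD8+ minus CD4- from -0.0073 to 0.401 for Tcf4 and -0.186 to 0.073 for Bcl11a. The difference of CD8+ and CD4+ effects of Ly6d ran from -0.54 to 0.0802, and of CD8+ and CD4- effects from -0.261 to 0.359. The difference of CD4+ and CD4- effects ran from -0.127 to 0.21 for Tcf4, -0.309 to 0.0917 for Runx2 and -0.116 to 0.378 for Siglech.

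With the replicate number as a block (replicate block), 5 genes were called in CD4- cells and Ly6d in CD4+ cells was at 0.0186. No call of the 9 genes was lost, and 5 were gained. The numbers are shared between groups without a stated pairing. Of 45 same-number pairs of libraries, 24 had a correlation of deviations over 0.1 (range -0.135 to 0.351, median 0.126). Of 90 different-number pairs, 10 did (range -0.269 to 0.206, median -0.0673), and 17 of 18 libraries correlated best with their own number. The main fit did not use the number.

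Over all genes, KO minus WT in CD4+ cells called 4692, but 3117 on log2(TPM + 1), 3101 on log2(TPM + 0.1) and 3096 with the length offset, and in CD4- cells 3471 and 2186 with the offset. For CD8+ minus CD4+ in WT the 6105 became 4017 and 4063 on the TPM scales, and for CD4+ minus CD4- in WT the 2241 became 1397, 1334 and, with the offset, 1258. For the differences of effects, the 2961 (CD8+ against CD4+) became 1434, 1440 and 1801, the 1761 (CD8+ against CD4-) became 981, 803 and 903, and the 503 (CD4+ against CD4-) became 266, 163 and 191, and as few as 306 without 1 library (WT CD4+ replicate 2). Depth limits Blk in CD8+ cells, with at most 15 counts in a library.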
